A study of Mus musculus with 4 samples.

Results

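The Krueppel-like factors are described here through 10 of their genes, Klf3, Klf4, Klf5, Klf6, Klf7, Klf9, Klf10, Klf11, Klf13 and Klf15, each taken from the count table by its symbol. The table holds 23282 distinct features, and all 10 genes were abundant enough to be among the 13285 tested. The cells were C2C12 myotubes, multinucleated muscle cells that form by fusion of a mouse myoblast line, so all libraries come from 1 line. Vehicle myotubes and myotubes given 1 µM dexamethasone, a synthetic glucocorticoid, were both deprived of steroids beforehand and both harvested after 2 h. RNA bound to chromatin was sequenced from 2 libraries per group. The labels do not say whether the libraries of a group came from separate cultures, so the p-values measure only the spread between these libraries, which may be technical. In such bulk samples a smaller number of cells of a type and less RNA per cell cannot be told apart.

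Krueppel-like factors are transcription factors with zinc fingers at the C-terminal end, by which they bind CACCC and GC boxes, the same sites that the related Sp factors use. They differ in the rest of the protein. Klf4, Klf5, Klf6 and Klf7 are known mostly as activators, Klf3 represses through the CtBP corepressors, and Klf9, Klf10, Klf11 and Klf13 can recruit the Sin3a corepressor. Klf15 is known in muscle for its control of amino acid catabolism and of atrophy genes, and Klf9 and Klf15 are long known as glucocorticoid-induced genes.

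RefSeq promoters (GRCm38.p6) were at hand for 8 of the 10 genes, all but Klf5 and Klf10. They are shown for the 4 genes whose 250 bases before the start hold no annotated exon in GENCODE M21. These are the windows of the 3 genes with the largest positive differences and of Klf4, which had a negative one. The Klf9 window is chr19:23140976-23141225 on the plus strand, that of Klf15 is chr6:90462326-90462575 on the plus strand, that of Klf13 is chr7:63938916-63939165 on the minus strand and that of Klf4 is chr4:55532476-55532725 on the minus strand. Each is written 5′ to 3′ along its gene and ends at the base before the start, with capitals for GC boxes (GGGCGG or its reverse complement) and CCAAT boxes (CCAAT or its reverse complement), where touching or overlapping matches run together.
Klf9: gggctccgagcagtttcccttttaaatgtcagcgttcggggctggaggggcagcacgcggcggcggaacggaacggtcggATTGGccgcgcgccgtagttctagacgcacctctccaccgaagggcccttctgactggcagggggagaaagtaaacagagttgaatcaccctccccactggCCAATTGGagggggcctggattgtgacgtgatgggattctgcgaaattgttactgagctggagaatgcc
Klf15: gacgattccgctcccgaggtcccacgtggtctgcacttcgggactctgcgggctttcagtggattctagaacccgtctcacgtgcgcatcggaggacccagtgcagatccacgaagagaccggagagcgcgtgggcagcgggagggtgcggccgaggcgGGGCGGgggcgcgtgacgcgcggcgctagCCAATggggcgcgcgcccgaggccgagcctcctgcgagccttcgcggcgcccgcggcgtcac
Klf13: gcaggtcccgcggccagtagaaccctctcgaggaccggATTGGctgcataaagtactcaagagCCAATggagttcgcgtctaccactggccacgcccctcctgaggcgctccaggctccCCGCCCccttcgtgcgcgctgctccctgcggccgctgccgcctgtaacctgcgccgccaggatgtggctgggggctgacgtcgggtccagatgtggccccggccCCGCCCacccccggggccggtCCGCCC
Klf4: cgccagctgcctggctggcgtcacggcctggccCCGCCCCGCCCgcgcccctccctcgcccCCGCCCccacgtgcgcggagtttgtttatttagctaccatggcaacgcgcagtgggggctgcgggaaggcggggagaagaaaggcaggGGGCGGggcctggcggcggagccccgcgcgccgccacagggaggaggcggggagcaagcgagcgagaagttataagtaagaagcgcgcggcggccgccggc
A GC box was found in 7 of the 8 windows, against 32.7% of 32851 promoters of the same length, and Klf9 was the one without. Klf3 held 6 GC boxes, Klf4 and Klf11 held 4 each, Klf13 held 3, and Klf6, Klf7 and Klf15 held 1 each. CACCC, the other kind of site these proteins bind, stood in 5 of 8 windows against 52% of all promoters, counted on both strands. CCAAT boxes stood in 5 of 8 (Klf6, Klf9, Klf11, Klf13 and Klf15) against 33.8%. The 8 windows were rich in G and C, from 59.2% in Klf7 to 78.4% in Klf3, where the median promoter had 52.4%. AGAACA, one arm of the glucocorticoid response element, was in 0 of 8 windows on either strand and in 16.1% of all promoters. The palindrome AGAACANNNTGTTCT, which contains that arm, was in 0 of 8 and in 0.00913% of all promoters. These letters were searched for only in the 250 bases, and a match is a description of the sequence.

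The libraries held between 19631435 counts (vehicle replicate 1) and 88596296 counts (dexamethasone replicate 2). One count was worth 0.0536 to 0.0107 CPM (counts rescaled to equal library totals, with TMM factors that correct for library composition). Fkbp5, a well known glucocorticoid target, was higher after dexamethasone by 5.32 on the log2 scale (SE 0.263, edgeR adjusted p 0.0429). The summed markers of myotubes, a list dominated by Ttn, were at 124154 and 119732 CPM in the replicate 1 libraries and 43401 and 42354 CPM in the replicate 2 libraries. Of these 9 markers, 9 were tested and none passed edgeR's adjusted threshold, nor did any have an unadjusted p under 0.05 or pass under DESeq2's Wald test, the likelihood ratio test or limma-voom. Among all tested genes, 4.09% were higher and 1.69% lower at an unadjusted edgeR p under 0.05. After adjustment, none of these tests called more than 1.83% of its tested genes in a direction. The summed markers of undifferentiated or dividing myoblasts were 56.6 and 61.3 CPM with vehicle against 42.0 and 49.9 CPM with dexamethasone. The fusion gene Mymk was the 1 myotube marker with libraries that did not overlap, at 176 and 173 CPM with vehicle and 208.3 and 207.9 CPM with dexamethasone. Pax7 alone of the 6 myoblast markers had libraries that did not overlap, with a log2 difference of -0.80 (SE 0.201). Its edgeR unadjusted p was 0.0128 and its adjusted p 0.456. The other 5 had positive values. Among all tested genes, 15% were higher and 12.9% lower without overlap, so 1 gene in each list is not read as a result. Markers of adipocytes, osteoblasts, macrophages and endothelium summed to at most 4.003 CPM per list in any library, and the osteoblast marker Ibsp was at 0. What part the markers have in the differences of the Klf genes was not tested.

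Dexamethasone was compared with vehicle to ask which of these genes changed within 2 h. By edgeR's quasi-likelihood test with Benjamini-Hochberg adjustment over all genes, 0 of 10 were called higher and 0 of 10 lower at an adjusted p under 0.05, where the shares of all tested genes called were 0.0376% and 0%. Before adjustment, 3 of the 10 had a p under 0.05 and were higher (Klf9, Klf15 and Klf13) and 1 was lower (Klf3), beside 4.09% of all tested genes higher and 1.69% lower. The 2 dexamethasone libraries exceeded the 2 vehicle libraries without overlap in 5 of 10 genes (Klf5, Klf6, Klf9, Klf13 and Klf15), beside 15% of all tested genes. They lay below in 1 of 10, Klf3, beside 12.9%. The median log2 difference of the 10 genes was 0.17, with 6 positive and 4 negative, and that of all tested genes was 0.00, with 49.7% positive and 50.3% negative. DESeq2's Wald test called 2 of the 10 higher, where it called 1.81% of the genes it tested, and 0 lower, where it called 0.407%. edgeR's likelihood ratio test called 2 higher (1.83% of all) and 0 lower (0.339%), and limma-voom called 0 in either direction (0%), though 3 higher genes and 1 lower gene had a p under 0.05 there before adjustment. Without vehicle replicate 2, edgeR's quasi-likelihood test called 2 higher (0.613% of all) and 0 lower (0.795%). The 2 were Klf9 and Klf15 in each case.

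**Figure D1:**
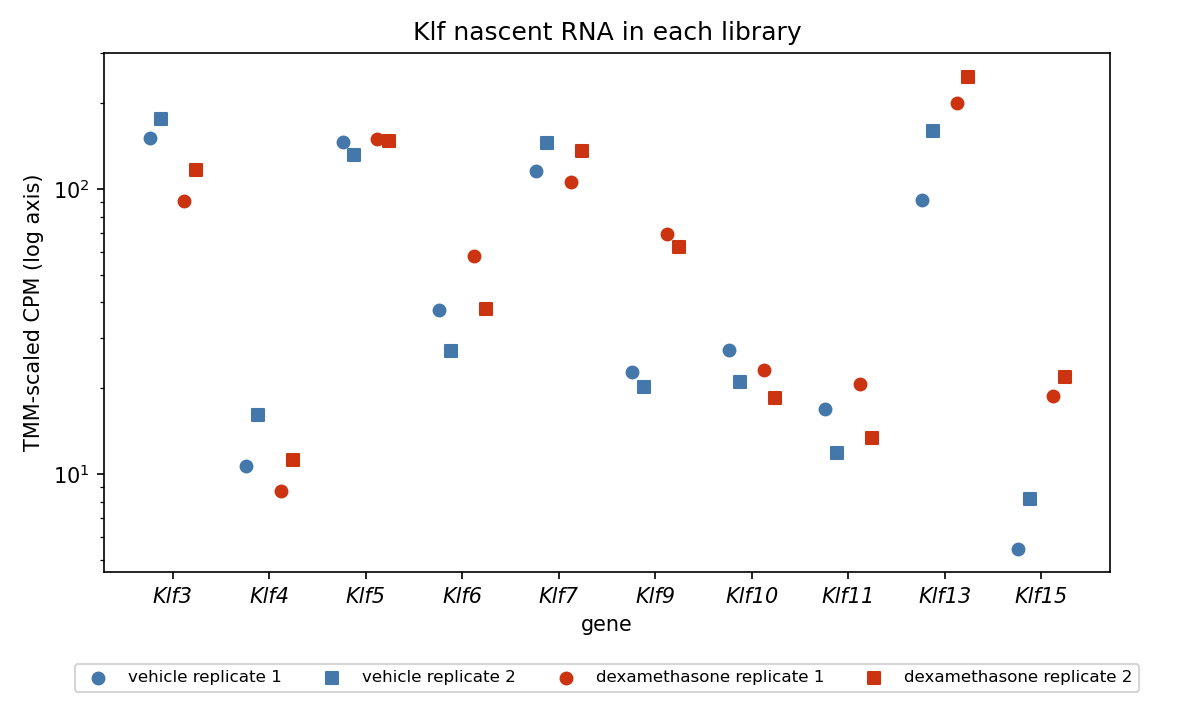
TMM-scaled CPM (log axis) of each Klf gene in each of the 4 libraries, with blue points for vehicle, red points for dexamethasone, circles for replicate 1 and squares for replicate 2. Red points lie clear above blue ones in Klf9, Klf15 and Klf13 and clear below them in Klf3, and they overlap in Klf4, Klf7, Klf10 and Klf11.

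Klf9 (ENSMUSG00000033863), a short repressor of the Sin3a-binding branch, was covered by 425 and 766 counts with vehicle and by 2083 and 5832 with dexamethasone. These are 22.8 and 20.2 CPM against 69.5 and 62.5 CPM. The groups stand far apart, and the libraries within a group differ little. The means were 21.5 ± 1.85 and 66.0 ± 4.97 CPM (SD, n = 2 each), a fold of 3.07 with a 95% interval of 2.33 to 4.04. In edgeR the log2 difference of 1.62 (SE 0.150) had an unadjusted p of 0.000203 and an adjusted p of 0.117. Its rank among 13285 tested genes was 23 by p and 131 by size of rise. DESeq2's Wald test called the difference (adjusted p 2.08e-10), as did edgeR's likelihood ratio test (adjusted p 1.83e-09). In limma-voom the gene did not pass (adjusted p 0.140). Over the fits that each left out 1 library the log2 difference ran from 1.54 (without vehicle replicate 2) to 1.71 (without vehicle replicate 1).

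Klf15 (ENSMUSG00000030087), the regulator of amino acid catabolism, was the scarcest of the 10 in vehicle cells, with 102 and 309 counts. The dexamethasone libraries had 561 and 2042. Scaled levels were 5.47 and 8.14 CPM with vehicle and 18.7 and 21.9 CPM with dexamethasone, so the groups do not overlap and replicate 2 was the higher library in each. The fold was 2.96 (95% interval 1.85 to 4.75) between means of 6.81 ± 1.89 and 20.3 ± 2.23 CPM (SD, n = 2 each). edgeR gave a log2 difference of 1.57 (SE 0.257), an unadjusted p of 0.00237 and an adjusted p of 0.209. DESeq2's Wald test (adjusted p 0.000120) and the likelihood ratio test (0.000219) called it. In limma-voom the gene did not pass (adjusted p 0.214). Leaving out vehicle replicate 2 gave a log2 difference of 1.90. Without vehicle replicate 1 the log2 difference was 1.32.

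Klf13 (ENSMUSG00000052040), of the same branch as Klf9, had 91.5 and 159 CPM with vehicle and 200.4 and 248 CPM with dexamethasone. Both dexamethasone libraries were above both vehicle libraries, but the vehicle libraries lay far apart. The means were 125 ± 48.0 and 224 ± 33.8 CPM (SD, n = 2 each), a fold of 1.79 with a 95% interval of 1.02 to 3.14. The edgeR log2 difference of 0.84 (SE 0.306) had an unadjusted p of 0.0452 and an adjusted p of 0.825. It depended on the vehicle libraries, with 0.49 without vehicle replicate 1 and 1.30 without vehicle replicate 2. In GENCODE M21, Gm27252 overlaps Klf13 on the other strand and has no counts of its own here. A small gene on the other strand, E030018B13Rik, lies wholly within the Klf13 gene. It had at most 9 counts in any library, against at least 1705 for Klf13.

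Klf10 and Klf11, both first described as early genes of TGF-beta signalling, complete the Sin3a-binding branch here. Klf10 had 27.3 and 21.03 CPM with vehicle and 23.1 and 18.5 CPM with dexamethasone, a log2 difference of -0.22 (SE 0.214, 95% interval -0.79 to 0.35). Klf11 had 17.0 and 11.9 CPM with vehicle and 20.8 and 13.3 CPM with dexamethasone, a log2 difference of 0.24 (SE 0.310, 95% interval -0.58 to 1.06). In each gene the groups overlap and replicate 1 was the higher library of its group. The edgeR adjusted p was 1.00 for both. Klf11 changed sign to -0.10 without dexamethasone replicate 1, and its 95% interval in folds was 0.670 to 2.09.

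Among the activators, Klf6 (ENSMUSG00000000078) had 37.6 and 26.9 CPM with vehicle and 58.4 and 37.99 CPM with dexamethasone. The lower dexamethasone library was barely above the higher vehicle library. The fold was 1.49 (95% interval 0.878 to 2.54), and the log2 difference of 0.58 (SE 0.290) had an edgeR unadjusted p of 0.107 and an adjusted p of 1.00. Leaving out dexamethasone replicate 1 gave 0.24, and leaving out dexamethasone replicate 2 gave 0.86.

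Klf5, which is expressed in many dividing and differentiating cells, was at nearly the same level in all 4 libraries. It had 146 and 132 CPM with vehicle and 150 and 147 CPM with dexamethasone. The log2 difference was 0.10 (SE 0.124), with the narrowest interval of the 10 genes, -0.23 to 0.43. Klf7, best known from the nervous system, had 116 and 145 CPM with vehicle and 106 and 136 CPM with dexamethasone. Its groups overlap, with a log2 difference of -0.11 (SE 0.196, 95% interval -0.63 to 0.41). The sign was positive at 0.07 both without vehicle replicate 2 and without dexamethasone replicate 1. Klf7 is overlapped by Mir6899 on the same strand and by Gm26649 and Gm13748 on the other in GENCODE M21. They have no counts of their own here, and their part was not tested.

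Klf4, one of the reprogramming factors, had 10.7 and 16.1 CPM with vehicle and 8.74 and 11.2 CPM with dexamethasone. Its groups overlap, since vehicle replicate 1 was below dexamethasone replicate 2. The log2 difference was -0.43 (SE 0.278, 95% interval -1.16 to 0.31) with an edgeR adjusted p of 1.00, and it ran from -0.69 without vehicle replicate 1 to -0.09 without vehicle replicate 2.

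Klf3 (ENSMUSG00000029178), the CtBP-dependent repressor, was the one gene with both dexamethasone libraries below both vehicle libraries. It had 2819 and 6691 counts with vehicle and 2715 and 10931 with dexamethasone. After scaling these were 151 and 176 CPM against 90.6 and 117 CPM, and the groups do not overlap. The fold was 0.634 (95% interval 0.454 to 0.886) between means of 164 ± 17.8 and 104 ± 18.7 CPM (SD, n = 2 each). edgeR gave a log2 difference of -0.66 (SE 0.183), an unadjusted p of 0.0182 and an adjusted p of 0.532. DESeq2's Wald test gave an adjusted p of 0.180. Over the fits that each left out 1 library the log2 difference ran from -0.86 (without dexamethasone replicate 2) to -0.48 (without dexamethasone replicate 1). In GENCODE M21, C230096K16Rik on the same strand and Gm20033 on the other overlap Klf3. Neither has counts of its own here, and their part in the Klf3 counts was not tested.

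The ratio of dexamethasone to vehicle was also taken within each replicate number, where 1 library per group allows no test. In 10 of 10 genes the ratio had the same sign within both numbers, beside 68.1% of all tested genes. The ratios were 3.05 and 3.09 for Klf9, 3.42 and 2.69 for Klf15, 2.19 and 1.56 for Klf13, and 1.55 and 1.41 for Klf6. Klf3 had 0.599 and 0.664, and Klf4 had 0.819 and 0.696. Klf9 thus had almost the same ratio in both, whereas the ratio of Klf13 was larger within replicate 1. The difference between the numbers was not tested.

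**Figure D2:**
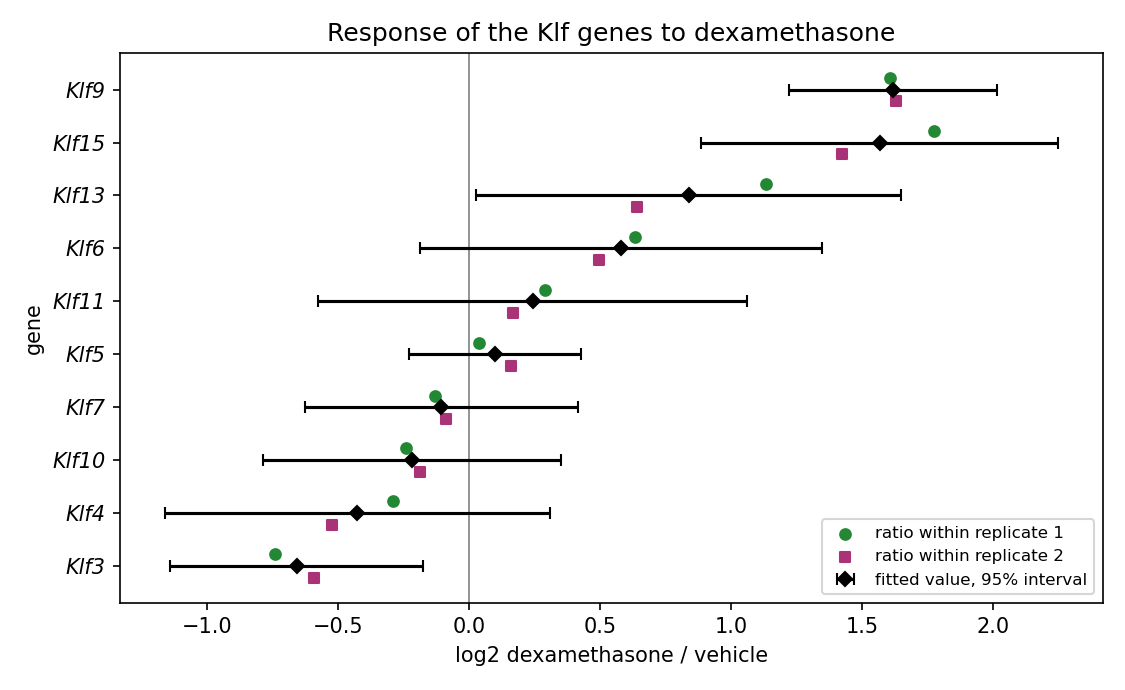
Log2 ratio of dexamethasone to vehicle for each Klf gene, with black diamonds for the edgeR value over 4 libraries, bars for its 95% interval, green circles for the ratio within replicate 1 and purple squares for that within replicate 2. The intervals of Klf9, Klf15, Klf13 and Klf3 do not reach 0, those of the other 6 genes do, and no gene has its circle and square on opposite sides of 0.

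The libraries also differed by replicate number. The ratio of replicate 2 to replicate 1 had the same sign with vehicle and with dexamethasone in 10 of 10 Klf genes, and in 82.4% of all tested genes, so nothing particular to the Klf genes is read from it. Klf11 was lower in replicate 2, with ratios of 0.700 with vehicle and 0.642 with dexamethasone, and so was Klf6 with 0.716 and 0.651. Klf10, Klf9 and Klf5 lay on the same side, from 0.770 to 0.978. Klf13 was higher in replicate 2, at 1.74 and 1.24, as were Klf15 (1.49 and 1.17), Klf4 (1.51 and 1.28), Klf7 (1.25 and 1.29) and Klf3 (1.17 and 1.29). The summed myotube markers, which Ttn dominates, were also higher in replicate 1 in both groups. Every marker of that list was lower in replicate 2. The ratios with vehicle and with dexamethasone were 0.130 and 0.153 for Ckm, 0.261 and 0.307 for Acta1, and 0.329 and 0.308 for Myh3. They were 0.325 and 0.306 for Myh8, 0.348 and 0.352 for Ttn, 0.438 and 0.432 for Des, and 0.480 and 0.514 for Myog. Nearest to equal were Tnnt3 (0.864 and 0.769) and Mymk (0.986 and 0.998). The part of these markers in the ratios of the Klf genes was not tested.

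To set the genes side by side, their levels were divided by the kilobases of exon in GENCODE M21, of which only lengths were used. In vehicle cells Klf5 led with 26.7 ± 1.97 CPM per kb of exon (SD, n = 2). Klf13 (16.7 ± 6.37), Klf7 (16.02 ± 2.53) and Klf3 (14.6 ± 1.58) followed, with overlapping libraries from one to the next. Below a gap came Klf6 (7.35 ± 1.72) and Klf10 (5.78 ± 1.06), which overlap. Klf9 (4.46 ± 0.384), Klf4 (4.39 ± 1.26), Klf11 (3.32 ± 0.830) and Klf15 (2.44 ± 0.677) were lowest, again with overlap between neighbours.

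With dexamethasone the order per kb of exon was different. Klf13 (29.8 ± 4.49 CPM per kb, SD, n = 2) and Klf5 (28.6 ± 0.442) overlapped at the top. Klf7 (14.9 ± 2.64), Klf9 (13.7 ± 1.03), Klf6 (10.97 ± 3.28) and Klf3 (9.23 ± 1.67) formed a run in which each overlaps the next. Klf15 (7.27 ± 0.799) stood alone, above Klf10 (4.97 ± 0.790), Klf11 (3.93 ± 1.21) and Klf4 (3.27 ± 0.571). Klf9 went from rank 7 to rank 4, Klf15 from rank 10 to rank 7, and Klf3 from rank 4 to rank 6.

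The levels per kb of exon of the 10 genes summed to 97.1 and 106 in the vehicle libraries and to 124 and 129 in the dexamethasone libraries. The files do not state whether reads in introns were counted. Divided by the whole gene span instead, Klf5 was at rank 1 in both groups, Klf13 went from rank 6 to rank 3, and Klf7, whose gene spans 92.8 kb, from rank 7 to rank 10.

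**Figure D3:**
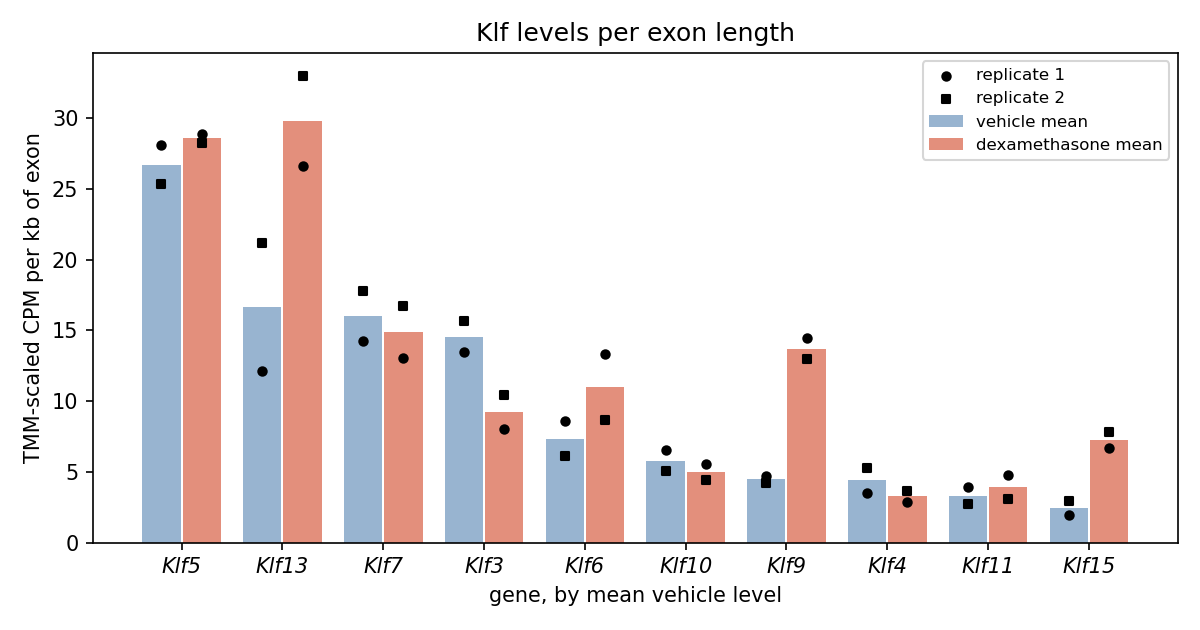
TMM-scaled CPM per kb of exon for each Klf gene in order of the vehicle mean, with bars for the mean of 2 libraries (blue for vehicle, red for dexamethasone) and black circles and squares for replicates 1 and 2. Klf5 is highest with vehicle at 26.7, and with dexamethasone Klf13 is at 29.8 and Klf9 at 13.7.

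The other Krueppel-like and Sp genes were listed too. Of 16 genes listed, 10 were tested. edgeR called 0 in either direction, beside 0.0376% of all tested genes higher and 0% lower. None had an unadjusted p under 0.05, beside 4.09% and 1.69%. DESeq2's Wald test called 0, beside 1.81% and 0.407% of the genes it tested. The likelihood ratio test called 0, beside 1.83% and 0.339%, and limma-voom called 0, beside 0%. With such shares, 0 of 10 says little about these genes. Their median log2 difference was -0.06, from -0.68 (Klf8, SE 0.478) and -0.47 (Sp6, SE 0.483) to 0.21 (Klf2, SE 0.320) and 0.44 (Sp8, SE 0.387). Klf2 was the 1 gene of the 10 with libraries that did not overlap, at 1.07 and 1.11 CPM against 1.30 and 1.22 CPM, where 15% of all tested genes were higher and 12.9% lower without overlap. Sp1, the broadly expressed founder of the Sp factors, had 102 and 95.9 CPM with vehicle and 100.2 and 93.8 CPM with dexamethasone. Klf1, Sp7 and Sp9 had at most 10 counts in any library, and Klf14, Klf17 and Sp5 are listed at 0.

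Coregulators of the family were next. All 15 listed genes were tested, and edgeR called 0, as did DESeq2's Wald test, the likelihood ratio test and limma-voom. Each of these tests called at most 1.83% of its tested genes in a direction. At an unadjusted edgeR p under 0.05 there were 0, beside 4.09% of all tested genes higher and 1.69% lower. With such shares, 0 of 15 says little about these genes. The median log2 difference was -0.11, with 4 positive and 11 negative. Sin3a, the corepressor shared by Klf9, Klf10, Klf11 and Klf13, had 64.8 and 67.8 CPM with vehicle and 59.2 and 54.1 CPM with dexamethasone, a log2 difference of -0.23 (SE 0.127). It and the acetyltransferase gene Kat2b, at -0.47 (SE 0.186), were the 2 of 15 with libraries that did not overlap, both lower, a share near the 12.9% of all tested genes. None of the 15 was higher without overlap, beside 15% of all tested genes. The smallest value was -0.57 (SE 0.356) for Fhl3, which encodes a LIM-domain protein known to bind Klf3. The largest were 0.11 for Sin3b (SE 0.136) and 0.22 (SE 0.201) for Ctbp1, a corepressor partner of Klf3.

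Genes linked to Klf15 in muscle were listed as enzymes of amino acid catabolism, the glucose transporter Slc2a4 and the ubiquitin ligases Fbxo32 and Trim63. Of 12 listed, 10 were tested, with a median log2 difference of 0.04. edgeR called 0, as did DESeq2's Wald test, the likelihood ratio test and limma-voom, where each called at most 1.83% of its tested genes in a direction. At an unadjusted edgeR p under 0.05, 2 were higher, beside 4.09% of all tested genes. Libraries did not overlap in 3 higher genes (Fbxo32, Trim63 and Dbt) and 2 lower genes (Bckdhb and Gpt2), beside 15% and 12.9% of all tested genes. The 2 with an unadjusted p under 0.05 were Fbxo32 at 0.83 (SE 0.208, adjusted p 0.449) and Trim63 at 0.76 (SE 0.249, adjusted p 0.714). Bcat2, which starts the breakdown of branched-chain amino acids, had 21.2 and 27.0 CPM with vehicle and 22.4 and 25.1 CPM with dexamethasone. The lowest values were -0.28 for Bckdhb (SE 0.201) and -0.19 for Gpt2 (SE 0.133). Tat had at most 2 counts in any library. Got1 is listed at 0 in every library, and whether it was missed in the counting was not tested.

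In the list around Klf10 and Klf11, 8 of 10 genes of TGF-beta signalling were tested, with a median of 0.01. edgeR's quasi-likelihood test called 0, as did DESeq2's Wald test, the likelihood ratio test and limma-voom, where each called at most 1.83% of its tested genes in a direction. At an unadjusted edgeR p under 0.05, 2 were lower (Tgfb1 and Tgfb3), beside 1.69% of all tested genes. Of the 8, libraries did not overlap in 3 that were higher (Tgfb2, Smad4 and Skil) and in 4 that were lower (Tgfb1, Tgfb3, Smad2 and Smad7), beside 15% and 12.9% of all tested genes. Tgfb3, a ligand gene, had 118 and 106 CPM with vehicle and 81.7 and 67.9 CPM with dexamethasone. Its log2 difference was -0.58 (SE 0.154, edgeR adjusted p 0.490). The highest values were those of Tgfb2 at 0.22 (SE 0.114) and of Skil, a Smad corepressor, at 0.20 (SE 0.120). Smad7, the inhibitory Smad, had 19.2 and 38.5 CPM against 8.54 and 18.2 CPM, a log2 difference of -1.10 (SE 0.508). The ligand gene Tgfb1 had -0.90 (SE 0.293). Smad3 and Tgfbr2 are listed at 0 in every library. Whether they had no RNA or were missed in the counting was not tested.

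**Figure D4:**
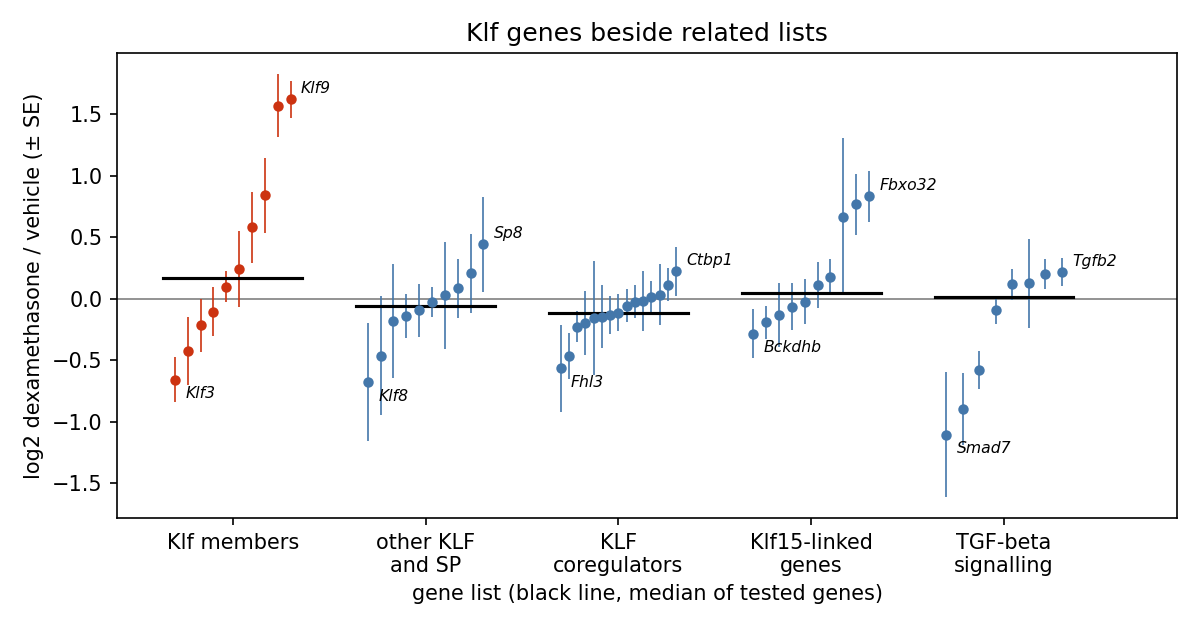
Log2 ratio of dexamethasone to vehicle (points, with bars of 1 SE) for the 10 Klf genes in red and for the tested genes of 4 related lists in blue, sorted within each list, with black lines for the medians and names for the lowest and highest gene. The Klf genes reach from -0.66 (Klf3) to 1.62 (Klf9), and the other Krueppel-like and Sp genes from -0.68 (Klf8) to 0.44 (Sp8).

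The genes with patterns most like that of Klf9 were sought among all tested genes by the root mean square difference of centred log2 CPM over the 4 libraries. The nearest was Glrx, the gene of glutaredoxin, at a difference of 0.0597. It had 3.86 and 3.64 CPM with vehicle and 12.4 and 10.2 CPM with dexamethasone. The next were 4933400C23Rik (0.0862), Gda (0.103), Tgfa (0.104) and Rrm2 (0.107). With 4 libraries this likeness says little beyond a similar fold and little spread between replicates. Of these 5 genes, 4933400C23Rik had at most 39 counts in any library. Vehicle counts were 2 and 4 for 4933400C23Rik, 7 and 10 for Tgfa, and 10 and 15 for Gda. Those of Glrx were 72 and 138, and those of Rrm2 were 95 and 151.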

How the data were processed

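Chromatin-bound RNA of C2C12 myotubes was sequenced in 4 libraries. The authors deposited one table of read counts by gene, not normalized, per the file header. The submitters' processing notes name TopHat2 2.0.13, SAMtools 1.1, HTSeq 0.6.1, DESeq2 1.18.1 and the build mm9, without roles. The counted features and the strand setting are not given in the sources used here, and the labels name both a total RNA and an mRNA kit. Groups and replicate numbers came from the sample titles. Of 23333 rows, 51 repeated an earlier one and were used once.

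Genes passing filterByExpr (minimum count 10, minimum total 15) were scaled by TMM and tested on group alone with edgeR 4.0.16 in R 4.3.3 (quasi-likelihood, two-sided, Benjamini-Hochberg, threshold 0.05). The residual degrees of freedom were 2. Intervals are 95% t intervals from that test. Alternatives used DESeq2 1.42.0, limma 3.58.1, other scalings and filters, thinned libraries, a replicate block and each library left out. The scripts were tested on simulated data. Promoters were matched to RefSeq (GRCm38.p6) by symbol. Because the counts rest on mm9, GRCm38 served for lengths, overlaps and promoters only. The Klf genes, the lists and the tests were chosen with earlier results of these data known. The values of 1 list gene are left out of the lists. The text names all 10 Klf genes, the 2 highest and 2 lowest genes of each related list and any that passed, the 5 genes most like Klf9, and Fkbp5. Sin3a, Sp1, Bcat2, Tgfb3, Dbt, Smad2, Smad4, Pax7, the myotube markers and the unmeasured list genes were named after their values were seen. The totals ran from 19631435 to 88596296 counts per library, and each group mean rests on 2 libraries.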

Additional observations from a re-analysis of the deposited data

How the results depend on the processing

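Each of the 10 Klf genes was refitted under 13 alternatives. Of these 130 values, 115 kept their direction and side of the threshold, 12 passed where the reported test did not, and 3 changed sign: Klf7 was at 0.0737 without vehicle replicate 2 and at 0.0695 without dexamethasone replicate 1, and Klf11 at -0.102 without dexamethasone replicate 1. Over the fits without 1 library Klf7 ran from -0.300 to 0.0737 and Klf11 from -0.102 to 0.531. The cause was not tested.

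Over all genes, edgeR's quasi-likelihood test called 5 higher and 0 lower (543 and 225 at an unadjusted p under 0.05). DESeq2's Wald test called 236 and 53, the likelihood ratio test 243 and 45, no filter beyond 1 count 23 higher, and limma-voom 0 higher (540.0 higher and 231 lower unadjusted). Leaving out 1 library gave 4 to 84 higher and 0 to 109 lower: 84 and 109 without vehicle replicate 2, 24 and 0 without dexamethasone replicate 1, 28 and 0 without dexamethasone replicate 2. The lone library of a group is then assumed to vary like the other group. Klf genes called were 0 higher in the reported test, 2 by DESeq2's Wald test, 2 by the likelihood ratio test and 0 to 2 without 1 library (2, Klf9 and Klf15, without vehicle replicate 2). None of the Klf genes was called lower without 1 library (0 in each of the 4 fits).

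The labels do not say that a replicate number marks a shared culture or day. The differences between replicate numbers correlated across genes between the groups (r = 0.734). A fit that took the replicate number as a block called 913 genes higher (6.87%) and 768 lower (5.78%), among them 4 Klf genes higher (Klf6, Klf9, Klf13 and Klf15) and 2 lower (Klf3 and Klf4), with 1 residual degree of freedom. Among the related lists it called Fbxo32 and Trim63 higher and Kat2b, Fhl3, Smad7, Tgfb1 and Tgfb3 lower, and among the cell type markers Mymk higher and Pax7 lower.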
